A study of Homo sapiens with 3 samples.

Results

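The cytoplasmic actins ACTB and ACTG1, the tubulins TUBA1A, TUBA1B, TUBA1C, TUBB, TUBB2A and TUBB2B, and the actin binders CFL1 and PFN1 were examined as 10 named genes of the 3580 genes in the peak lists. A peak went to the gene whose RefSeq transcript its annotation names, where the lists pair that transcript with a gene name, and otherwise to the gene name of its row. Under that rule the 10 genes held 113 of 11219 peaks for vector, 159 of 19920 for wild-type and 116 of 15680 for G325E. The peaks are positions of ribosome-protected mRNA fragments from HEK293T cells, a line derived from human embryonic kidney, that were transfected for 24 h with the empty plasmid (vector), with FLAG-tagged wild-type DDX3X or with FLAG-tagged DDX3X G325E. DDX3X is a DEAD-box RNA helicase, and G325E is a cancer-associated substitution in it. Per the labels, the transfection was transient and all 3 groups received harringtonine at 2 µg/ml for 90 s and then cycloheximide at 100 µg/ml, whereas the study's methods name cycloheximide only. There was 1 library per construct and no replicate, so no difference below could be set against the spread between cultures and no test was made. The study's read summary, whose values are not used here, has the most non-duplicated mapped reads for wild-type and the fewest for G325E.

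Actin monomers polymerise into the filaments of the cell cortex and stress fibres. Profilin (PFN1) delivers ATP-loaded monomers to growing filament ends, and cofilin (CFL1) severs and disassembles older filaments. An α-tubulin and a β-tubulin form the dimer from which microtubules are built, and both families are encoded by several genes whose coding sequences are very similar. In ribosome profiling, the ribosome shields a short stretch of mRNA from nuclease, and sequencing those stretches maps the ribosomes along each message. Because the cells were measured in bulk, fewer cells translating a gene and fewer ribosomes per cell cannot be told apart, and neither can be separated from a change in mRNA level, which was not analysed here.

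The sequences that follow are shown because the members of a family can be told apart only where such short stretches differ. All come from GRCh37, the build of the files, and run 5′ to 3′ on the gene's own strand. The opening 30 coding bases are given with the start codon in capitals, for 4 genes whose start codon lay under a peak in every list, for TUBB2A, whose start codon was covered in wild-type, and for TUBA1A, whose start codon was covered in none of the 3 lists.
ACTB (start codon chr7:5569286-5569288, minus strand): ATGgatgatgatatcgccgcgctcgtcgtc
ACTG1 (start codon chr17:79479378-79479380, minus strand): ATGgaagaagagatcgccgcgctggtcatt
PFN1 (start codon chr17:4851687-4851689, minus strand): ATGgccgggtggaacgcctacatcgacaac
TUBB2B (start codon chr6:3227775-3227777, minus strand): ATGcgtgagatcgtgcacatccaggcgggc
TUBB2A (start codon chr6:3157695-3157697, minus strand): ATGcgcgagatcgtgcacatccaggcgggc
TUBA1A (start codon chr12:49582760-49582762, minus strand): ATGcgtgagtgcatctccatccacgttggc
TUBA1B and TUBA1C open with the same 30 bases as TUBA1A. Within a pair of genes the coding sequences were identical at 91.2% of 1128 positions for ACTB and ACTG1, at 97.2% of 1356 for TUBA1A and TUBA1B, and at 98.1% of 1338 for TUBB2A and TUBB2B.

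The next stretch carries a TUBA1A peak that had the same bounds in all 3 lists, with the aligned stretches of the other α-tubulin genes beneath. Capitals mark bases that differ from TUBA1A. The peak of 24 bases lies at the 5′ start of exon 4.
TUBA1A (chr12:49579750-49579773, minus strand, codons 126 to 133): gccgaccagtgcacgggtctccag
TUBA1B (chr12:49522698-49522721, minus strand): gcTgaccagtgcacCggtctTcag
TUBA1C (chr12:49666036-49666059, plus strand): gcTgaccagtgcacCggtctTcag
The exon 4 stretch differs from TUBA1A at 3 bases in the other genes, and in wild-type 16 of its 24 bases were covered in each of them.

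Peak numbers of the actins differed little between the lists. ACTB had 25 peaks in vector, 25 in wild-type and 26 with G325E. ACTG1 had 20, 19 and 23 peaks in the same order. Not all of them lay on the mature message. Placed by midpoint, 13, 13 and 16 of the ACTB peaks were in coding sequence, 7, 9 and 8 in introns and 3, 1 and 1 outside the transcript. For ACTG1, 13, 13 and 15 were in coding sequence and 3, 3 and 4 in introns. The ranks and scaled values that follow use all peaks. Both genes stood near the top of each list by number: ACTB ranked 7 of 2022 genes in vector, 43 of 3006 in wild-type and 11 of 2310 in G325E. Since the lists differed in size, peak numbers were also scaled to the total of each list. On that log2 scale the actins together differed by −0.86 between wild-type and vector (95% counting interval −1.49 to −0.23), wild-type being lower. G325E differed by −0.36 (−0.97 to 0.26) from vector and by 0.50 (−0.12 to 1.12) from wild-type, intervals that include 0. Scaling by the median gene in place of the total turned the sign of the actins' difference between G325E and vector, from −0.36 to 0.02.

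Coding coverage, the share of a gene's coding bases (stop codon included) that lay under any peak, was high in the actins. It is not scaled to the size of a list, and over all genes the peaks covered 223979 coding bases in vector, 385924 with wild-type and 276026 with G325E. Coverage was 75.4% in vector, 81.6% in wild-type and 67.3% with G325E for ACTB. ACTG1 reached 88.7%, 86.7% and 79.5%. The median over genes with any coding coverage was 15.7%, 15.3% and 12.8% in these lists, so the actins lay far above the usual gene in each. In both actins the G325E list had the lowest unscaled value. Scaled to the covered coding bases of each list, wild-type was lowest in both. On the log2 scale G325E differed from wild-type by 0.21 in ACTB and 0.36 in ACTG1, and wild-type from vector by −0.67 and −0.82. Exon 6, the last exon, carried 36.8% of its coding bases under peaks in ACTB and 62.5% in ACTG1 in G325E, against 49.3% and 88.9% in vector and 72.9% and 90.3% in wild-type. Exon 2, which opens the coding sequence of both, stood at 99.2% in ACTB in every list and between 71.5% and 74.0% in ACTG1.

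**Figure D1:**
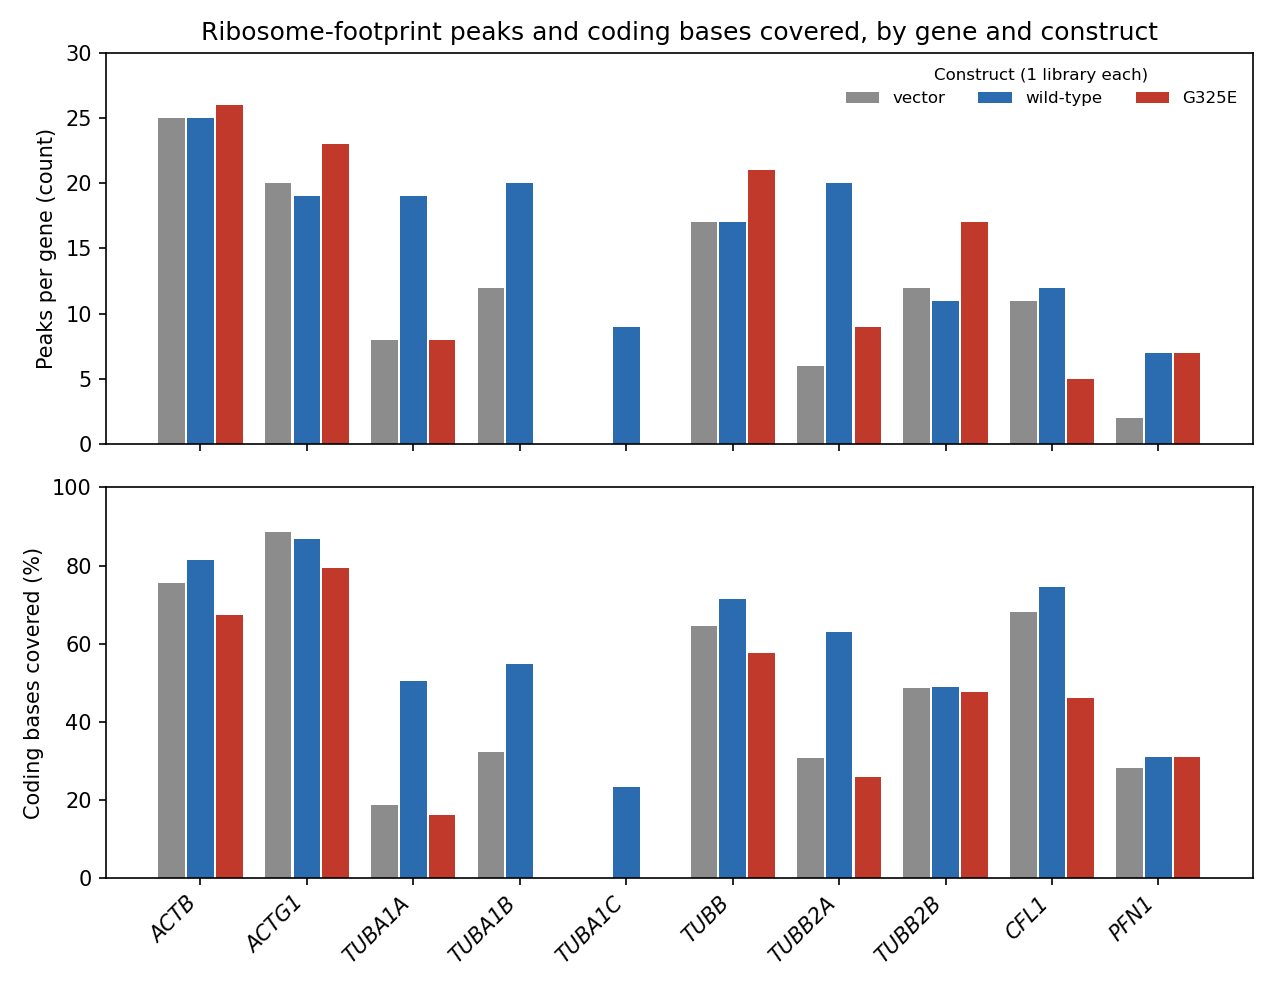
Number of peaks per gene (upper panel) and percent of coding bases under a peak (lower panel) for the 10 genes, with 1 bar per construct and 1 library behind each bar. The actins have 19 to 26 peaks in each list, the α-tubulins have the most peaks and coverage in wild-type before scaling, and TUBA1B has 12 peaks in vector, 20 in wild-type and 0 with G325E.

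The α-tubulins differed most. TUBA1A had 8 peaks in vector, 19 in wild-type and 8 with G325E. TUBA1B had 12 in vector, 20 in wild-type and 0 with G325E. TUBA1C had 9 in wild-type and 0 in the other 2 lists. The wild-type list thus held the most peaks of each gene, and the G325E list held α-tubulin peaks in TUBA1A alone. The wild-type list is also the longest: scaled to the list totals, TUBA1B differed between wild-type and vector by −0.09 on the log2 scale (−1.19 to 1.07), or by −0.11 with a pseudocount of 0.5, which median scaling turned to 0.45. The α-tubulins together had 20, 48 and 8 peaks. Scaled to the list totals, G325E stood at −1.80 on the log2 scale relative to vector (interval −3.20 to −0.56) and at −2.24 relative to wild-type (−3.53 to −1.15), whereas wild-type and vector differed by 0.43 (−0.35 to 1.27). With median scaling these differences were −1.42, −2.58 and 1.00, in the same directions. Between G325E and vector the unscaled peak numbers of the family differed in TUBA1B alone. Scaled to the list totals, TUBA1A differed by −0.48 (−2.09 to 1.13), −0.90 (−2.30 to 0.36) and 0.42 (−0.84 to 1.82) in the same order, intervals that include 0. For a gene at 0 in a list the interval has 1 bound. TUBA1B with G325E lay below −1.96 on the log2 scale relative to vector and also relative to wild-type, and TUBA1C with G325E lay below −0.64 relative to wild-type. TUBA1C with wild-type lay above 0.15 relative to vector. These intervals cover counting error only.

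Unscaled coding coverage was likewise highest in wild-type. It was 18.7% in vector, 50.4% in wild-type and 16.3% with G325E for TUBA1A. For TUBA1B it was 32.3%, 54.9% and 0%. For TUBA1C it was 0%, 23.3% and 0%. Scaled to the covered coding bases of each list, wild-type and vector differed by 0.61 in TUBA1A and by −0.03 in TUBA1B on the log2 scale. In exon 2 of TUBA1A (chr12:49580394-49580616, minus strand), which holds 223 coding bases, wild-type peaks covered 49.3% and the other lists covered 0%. Its exon 3 was covered over 47.0% in vector, 83.2% in wild-type and 36.2% with G325E, and exon 4 over 18.7%, 45.8% and 17.0%. In TUBA1B, vector peaks covered 0% of exon 2 and of exon 3, and wild-type peaks covered 44.4% and 66.4%. All 9 wild-type peaks of TUBA1C lay in exon 4, between codons 126 and 306. Every base of TUBA1A that was covered in G325E was also covered in wild-type (221 bases), and 90.0% of them were covered in vector.

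Since a read of a shared stretch matches more than 1 of these genes, coverage was also taken over the family, counting an aligned position as covered if it lay under a peak in any of the 3 genes. Over the 1320 coding positions that align without a gap, of which 1264 are identical in the 3 genes, 38.6% were covered in vector, 64.2% in wild-type and 16.7% with G325E. The order of the constructs in unscaled coverage was therefore the same when the gene that carried a peak was disregarded. Peaks were called after reads had been placed, so this count cannot recover reads that were split or dropped before. Positions covered in all 3 genes at once made up 14.2% in wild-type and 0% in vector and in G325E. Among bases whose 28-base window occurs nowhere else in the genome, coverage of the α-tubulins was 17.3%, 43.6% and 6.16%, close to the values over all their coding bases (17.0%, 42.9% and 5.44%).

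The lower α-tubulin values in G325E stood beside a difference in base composition. Mean GC over the 31 nt around coding peaks of all genes was 59.4% in vector, 58.6% in wild-type and 68.2% with G325E, and the α-tubulins have the lowest coding GC of the 10 genes, at 53.3% (TUBA1A), 53.9% (TUBA1B) and 53.8% (TUBA1C). TUBB and CFL1 were close to them, at 55.9% and 55.1%, and had 21 and 5 peaks in G325E. Of 175 genes with a coding GC of 53 to 56% and at least 5 wild-type peaks, 57 (32.6%) had no peak in G325E, and over all 1708 genes with at least 5 wild-type peaks 551 (32.3%) had none. A coding GC was found for 1415 of the 1708, and the others are in no GC band, so these sets are not fully alike. The same sets had 54 (30.9%) and 501 (29.3%) genes with no peak in vector. The share with no peak in G325E ran from 36.9% in genes under 50% GC to 23.5% in genes of 65% and more. The share with no peak in vector was 30.2% in genes under 50% GC and 34.6% in genes of 65% and more. The part of base composition in the α-tubulin values was not tested. Among the 94 genes with at least 20 peaks in wild-type, 12 (12.8%) had none in G325E, TUBA1B among them, and 8 had none in vector. The bound of 20 is TUBA1B's own number in wild-type, the longest list. A lower bound gave a larger share at 0 in G325E, 23.7% with a bound of 9 and 32.3% with a bound of 5. How rare the 0 of TUBA1B is thus depends on the bound and was not tested.

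**Figure D2:**
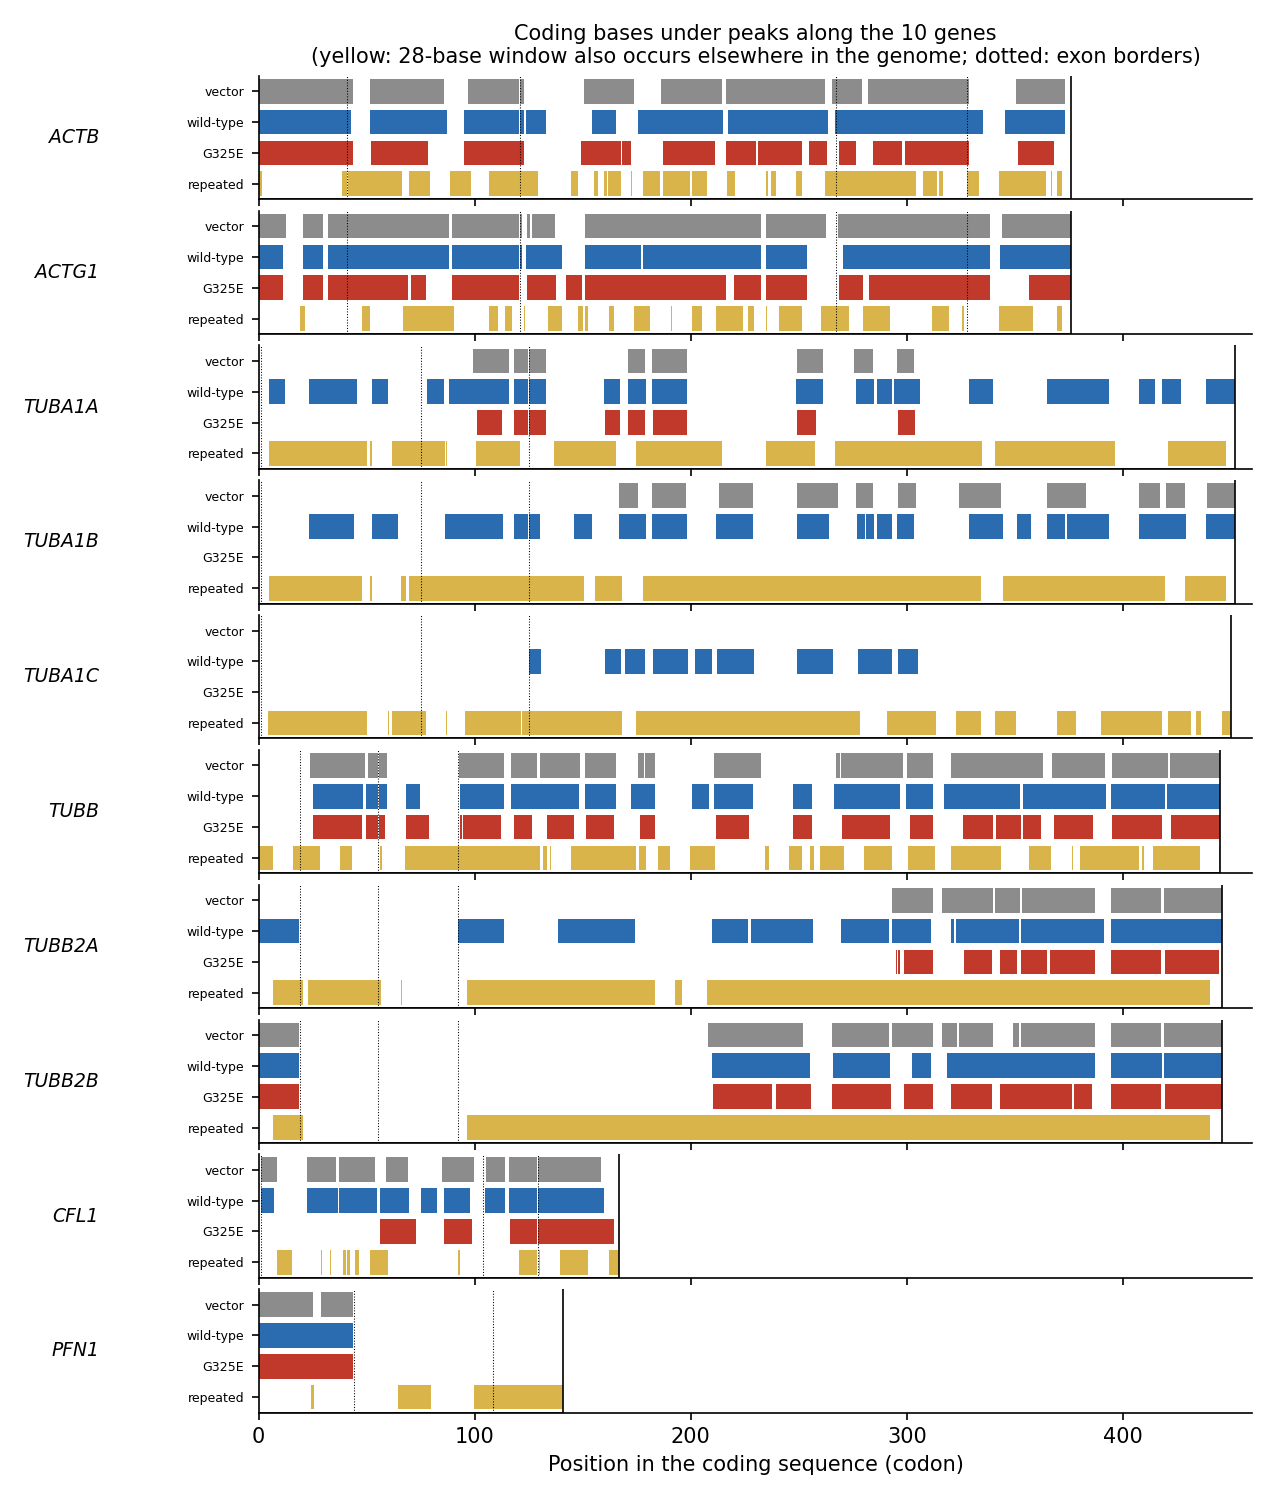
Coding bases under a peak along each of the 10 genes, in codons from the start codon, for vector (grey), wild-type (blue) and G325E (red), with exon borders dotted. The yellow row marks bases whose 28-base window also occurs elsewhere in the genome. TUBB2A is empty before codon 294 in vector and before codon 296 in G325E, PFN1 is covered in exon 1 alone, and TUBA1B has no red.

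Of the β-tubulins, TUBB (canonical transcript at chr6:30688129-30693199, plus strand), an isotype expressed in most cells, had 17 peaks in vector, 17 in wild-type and 21 with G325E, and coverage of 64.6%, 71.4% and 57.8%. Its exon 1 (57 coding bases) and start codon were under no peak in any list, and coverage opened at codon 24 in vector and codon 26 in the other 2 lists. In exon 3 coverage was 9.91% in vector, 27.9% in wild-type and 36.9% with G325E, against the order of its whole coding sequence. The β-tubulins together had 35, 48 and 47 peaks, with scaled differences of −0.37 (wild-type against vector), −0.06 (G325E against vector) and 0.31 (G325E against wild-type), all with intervals that include 0 and all turning sign under median scaling (0.19, 0.33 and −0.03). These totals include peaks in introns and outside the transcript. Peaks centred in coding sequence numbered 17, 16 and 19 in TUBB, 6, 11 and 9 in TUBB2A, and 9, 6 and 9 in TUBB2B.

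TUBB2A and TUBB2B, neighbours on chromosome 6, differed in their unscaled order of the lists. TUBB2A had 6 peaks in vector, 20 in wild-type and 9 with G325E, with coverage of 30.8%, 63.0% and 26.0%. TUBB2B had 12, 11 and 17 peaks, with coverage of 48.8%, 48.9% and 47.7%. Of the 17 TUBB2B peaks in G325E, 9 were centred in coding sequence, 4 in introns and 2 outside the transcript. TUBB2A was thus highest in wild-type before scaling, while unscaled TUBB2B coverage was level across the 3 lists. Scaled to the list totals, TUBB2A peak numbers differed by 0.91 (−0.46 to 2.51) between wild-type and vector on the log2 scale. For TUBB2B this was −0.95 (−2.28 to 0.35), and both intervals include 0. Scaled to the covered coding bases, the same comparison gave 0.23 for TUBB2A and −0.78 for TUBB2B. Between G325E and wild-type it gave −0.77 and 0.45. Vector and G325E peaks of TUBB2A began at codons 294 and 296, and wild-type peaks began at the start codon, covering 98.2% of exon 1. Of the 20 wild-type peaks, 6 lay upstream of the transcript and 2 in an intron, and 5 were on the strand opposite to the gene, where the other lists had none.

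These genes share 1009 of their 28-base coding windows (75.4% of each). Exon 2 and exon 3 of TUBB2B, where 3.67% and 0% of the windows occur elsewhere, were covered over 0% in every list, whereas exon 4, with 97.2% of windows found elsewhere, was covered over 56.3%, 56.4% and 54.9%. A TUBB2B stretch of each kind is shown with the aligned TUBB2A bases, those that differ from TUBB2B in capitals. They come from exon 2 and from the opening of the part of exon 4 that was covered in every list.
TUBB2B exon 2 (chr6:3226864-3226893, minus strand): tcatcagtgatgagcatgggattgacccca
TUBB2A exon 2 (chr6:3156347-3156376, minus strand): tcatcagCgatgagcatgggatCgacccca
TUBB2B exon 4 (chr6:3225662-3225691, minus strand): gcttccgcaccctgaagctgaccaccccca
TUBB2A exon 4 (chr6:3154774-3154803, minus strand): gcttccgcaccctgaagctgaccaccccca
The exon 2 stretches differ at 2 bases and lay under no peak in either gene. In TUBB2A, 92.7% of the exon 2 windows occur elsewhere, and that exon was also covered over 0% in every list. The exon 4 stretches are the same in both genes. They were covered over all 30 bases in TUBB2B in every list, and in TUBB2A in wild-type but not in vector or G325E. Taken position by position over both genes, 50.9% of the aligned coding bases were covered in vector, 65.02% in wild-type and 48.4% with G325E.

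**Figure D3:**
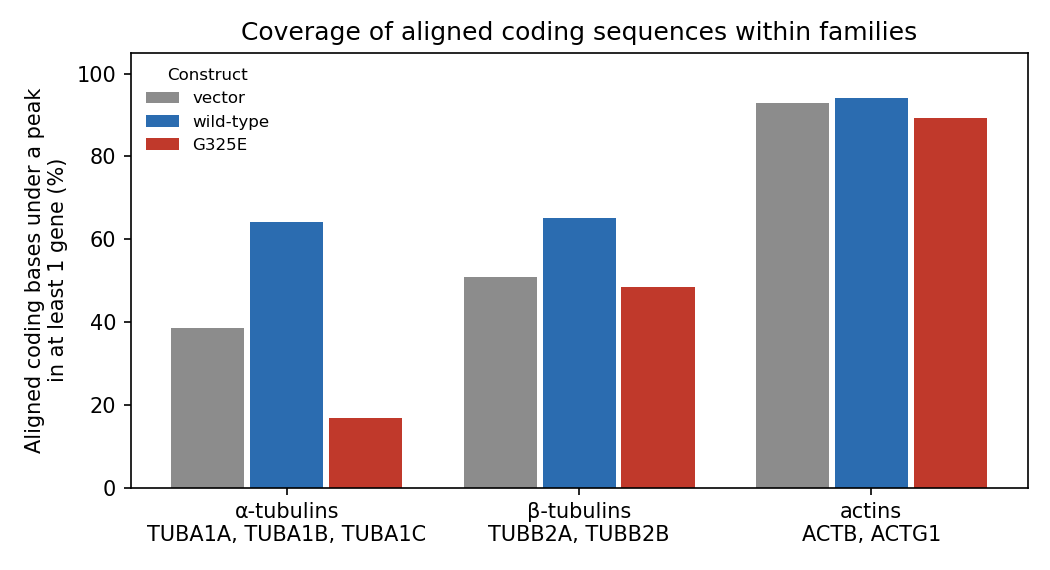
Percent of aligned coding positions under a peak in at least 1 gene of a family, for the α-tubulins (1320 positions), TUBB2A with TUBB2B (1338) and ACTB with ACTG1 (1128), 1 bar per construct. The α-tubulins run from 64.2% in wild-type to 16.7% in G325E, and the actins stay between 89.3% and 94.2%.

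Both actin binders were covered unevenly along the message. CFL1 (canonical transcript at chr11:65622144-65625651, minus strand) had 11 peaks in vector, 12 in wild-type and 5 with G325E, with coverage of 68.3%, 74.5% and 46.1%. In G325E its exon 2 was covered over 28.6%, against 61.0% in vector and 69.5% in wild-type, while exon 4, which ends the coding sequence, was covered over 92.9%, against 77.9% and 81.4%. Coverage of CFL1 in G325E opened at codon 57, compared with codon 2 in the other lists. The scaled log2 difference of CFL1 between G325E and vector was −1.55 with a pseudocount of 0.5, and the counting interval without it (−3.50 to 0.02) includes 0.

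PFN1 had 2 peaks in vector, 7 in wild-type and 7 with G325E. Its coding coverage was 28.1%, 30.97% and 30.97%, and in every list it came from exon 1 (chr17:4851558-4851825, minus strand) alone, up to codon 44. Exon 2 and exon 3 were covered over 0% in all 3 lists. In exon 3 every 28-base window occurs elsewhere and in exon 2 37.3% do, and the processed pseudogene PFN1P1 shares 173 of the coding windows. Most of the higher peak number lay off the transcript: in wild-type 6 of the 7 peaks were outside it, 4 of them at its 3′ side on chromosome 17, where the neighbouring gene RNF167 lies, and in G325E 3 were outside and 3 in an intron. Covered coding bases of PFN1 numbered 119 in vector and 131 in each of the other lists.

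Calls of a 2-fold difference in scaled peak number were made for genes with at least 5 peaks in a pair of lists. Between wild-type and vector, TUBA1C was higher and 0 of the 10 members were lower, against 26.3% higher and 17.3% lower of 2191 genes. Between G325E and vector, PFN1 was higher and TUBA1B and CFL1 were lower of 9 members with enough peaks, against 32.4% higher and 21.4% lower of 2067 genes. Between G325E and wild-type, TUBA1B and TUBA1C were lower and 0 were higher, against 28% lower and 25% higher of 2528 genes. Scaled to the list totals, the members' shares were thus near or below those of all genes. TUBA1B and TUBA1C, at 0 in 1 list of each called pair, met the minimum through the other list alone. That fixed the direction of their calls. With 3 peaks allowed for a 0, TUBA1C with wild-type was 1.69-fold above vector, short of 2-fold. By that allowance TUBA1B with G325E was 5.59-fold below vector and 5.25-fold below wild-type, and TUBA1C 2.36-fold below wild-type. The median scaled log2 value over all genes tested was −0.33, −0.04 and 0.11 in the 3 comparisons. Median scaling moved every value by 0.57, 0.38 and −0.35, adding TUBB2A and PFN1 to the members higher with wild-type than with vector, and TUBA1A, TUBB2A and CFL1 to those lower with G325E than with wild-type. That made 3 of 10 members higher with wild-type than with vector, against 31.9% of all genes. With G325E 5 of 10 were lower than with wild-type, against 31.6% of all genes, so the members' share was then the larger. The split of calls over all genes between wild-type and vector changed with median scaling from 60.3% higher and 39.7% lower to 86.7% and 13.3%, and between G325E and vector from 60.3% and 39.7% to 70.3% and 29.7%. Between G325E and wild-type it changed from 47.1% and 52.9% to 39.2% and 60.8%. In covered coding bases, scaled to the total of each list, TUBA1A, TUBA1B and TUBA1C were at least 2-fold lower with G325E than with wild-type, against 38.6% of 1704 genes, and 0 members were higher, against 22.2%. Relative to vector, TUBA1B was lower with G325E, against 28.4% of 1378 genes, and 0 members were higher, against 30.9%. TUBA1C was higher with wild-type than with vector, against 33.1% of 1481 genes, and 0 members were lower, against 8.98%. Here too, TUBA1B and TUBA1C met the minimum coverage through the other list alone where they stood at 0.

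Placed by midpoint, a small share of the 10 genes' peaks lay near the 5′ end. Of 86 exonic member peaks in G325E, 4 (4.65%, 95% Wilson interval 1.82 to 11.4%) were centred in the 5′-UTR, compared with 29.4% (28.4 to 30.4%) over all genes. For vector the share was 5.26% (2.27 to 11.7%) for the members and 14.0% (13.1 to 14.9%) for all genes, and for wild-type 5.56% (2.72 to 11.02%) and 14.7% (14.1 to 15.4%). The intervals of members and of all genes did not overlap in any list. They take each peak as an independent count, although the member peaks come from at most 10 genes, so this is not a test of a difference. By the deposited region classes, which add promoter peaks upstream of the transcript and lose the ACTG1 coding peaks to a non-coding class, the members' 5′-UTR share was 12.6%, 14.1% and 18.1%. Coding peaks made up 91.6%, 92.1% and 93.0% of the members' exonic peaks. Within the coding sequence, 6.90% of member peaks in vector, 7.76% in wild-type and 6.25% with G325E were centred in the opening 10%, whereas over all genes these shares were 15.7%, 15.1% and 25.4%. All genes thus had their highest 5′ shares with G325E. The members' intervals overlapped between the lists, and the order of their 5′-UTR shares turned with the way of counting: weighted by peak length the shares were 9.24%, 9.14% and 12.7%, and without peaks under 20 bp 5.06%, 5.45% and 5.19%. These other ways of counting were not applied to all genes, so they give no comparison with the members. The difference between members and all genes in the change with G325E was not tested.

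**Figure D4:**
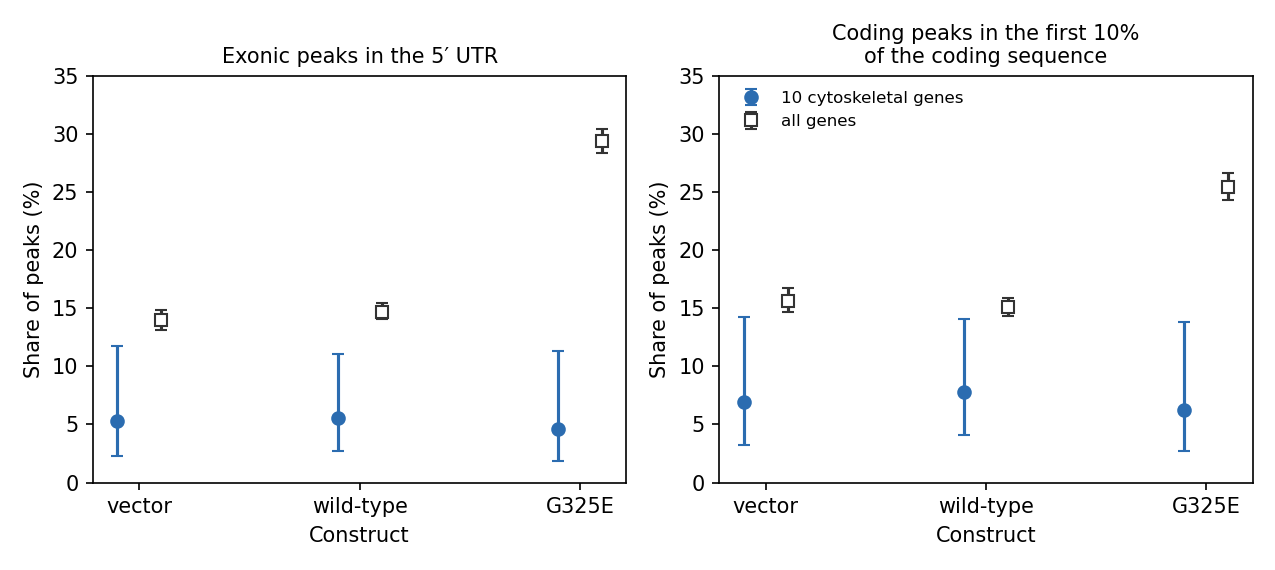
Percent of exonic peaks centred in the 5′-UTR (left) and of coding peaks centred in the opening 10% of the coding sequence (right), for the 10 genes (filled circles) and all genes (open squares), by construct. Bars are 95% Wilson intervals for counting error. With G325E all genes stand at 29.4% and 25.4%, and the 10 genes at 4.65% and 6.25%.

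A peak over the start codon was present in ACTB, ACTG1, PFN1 and TUBB2B in all 3 lists, and in TUBB2A in wild-type as well. That was 4 of 9 members with an exonic peak in vector (37.5% of 1313 genes), 5 of 10 in wild-type (36.7% of 1971 genes) and 4 of 8 in G325E (51.1% of 1670 genes). With the stricter requirement that a peak reach 12 bases to each side of the start codon's first base, 2, 3 and 2 members had such a peak. Peaks over the stop codon were present in ACTG1, TUBB and TUBB2B in all 3 lists.

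Most positions covered in G325E were also covered in the other lists. Of the members' exonic bases covered in G325E, 96.1% were also covered in wild-type and 94.2% in vector. Of those covered in vector, 94.4% were covered in wild-type and 77.3% in G325E, and of those covered in wild-type, 71.4% were covered in vector and 59.6% in G325E. In every list 6 member peaks had the same bounds and strand: 2 each in ACTB, ACTG1 and TUBA1A. The longest of them, the ACTB peak of 128 bases at chr7:5569167-5569294 over exon 2, was listed on the plus strand although ACTB lies on the minus strand. Member peaks on the strand opposite to their gene numbered 4 (3.54%, 1.39 to 8.75%) for vector, 11 (6.92%, 3.91 to 11.96%) for wild-type and 7 for G325E (6.03%, 2.95 to 11.9%), with overlapping intervals.

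Sequence shared with other loci was common to all members. The share of coding bases whose 28-base window occurs elsewhere in the genome was 86.3% in TUBA1B, 83.0% in TUBB2A, 80.1% in TUBB2B, 75.0% in TUBA1C, 73.9% in TUBA1A, 60.8% in TUBB, 53.3% in ACTB, 41.1% in PFN1, 37.8% in ACTG1 and 29.5% in CFL1. TUBB shares 674 windows with the pseudogene TUBBP1, and ACTB shares 217 with ACTBP2. Of the peaks assigned to genes other than the members, 0 in any list lay in the 65 pseudogenes that share at least 10 windows with a member. Peaks assigned to a member were left out of this count. Over all 10 genes, coverage of bases in unique windows was 52.2% in vector, 59.9% in wild-type and 44.4% with G325E, and coverage of bases in repeated windows was 39.6%, 58.0% and 31.1%, so the constructs had the same order in both before scaling. Scaled to the covered coding bases of all genes, the 10 genes held 2.20%, 1.71% and 1.45%, with vector highest.

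Other cytoskeletal genes were read from 7 lists of 75 genes. With at least 5 peaks in the pair, 27 could be compared between wild-type and vector (6 higher and 5 lower by 2-fold), 21 between G325E and vector (5 and 4) and 24 between G325E and wild-type (3 and 6). The other actins ACTA1, ACTA2, ACTC1, ACTG2 and ACTBL2 had 0 peaks in every list. Of the other tubulins, TUBB4B had 20 peaks in vector, 28 in wild-type and 22 with G325E, and TUBB4A had 17, 15 and 17. The dynactin subunit DCTN1 had 0, 16 and 5 peaks and the actin crosslinker ACTN4 had 0, 15 and 10. The filament elongation factor VASP had 0, 10 and 3. The tropomyosin TPM4 had 0, 9 and 12 and the kinesin heavy chain KIF5B 0, 9 and 10. These 5 genes had no peak in vector and at least 9 in wild-type, as did 164 of 771 genes with so many wild-type peaks. The capping protein CAPZB (7, 5 and 10), the monomer-sequestering thymosin TMSB10 (10, 6 and 11) and the coactosin COTL1 (4, 5 and 7) differed by fewer peaks. The tubulin cofactor TBCA, which binds β-tubulin before dimers form, had 10, 9 and 0 peaks. Of the 771 genes with at least 9 wild-type peaks, 183 (23.7%) likewise had none in G325E. Of the 27 compared between wild-type and vector, 22.2% were higher and 18.5% lower, near the 26.3% and 17.3% of all genes. Between G325E and vector the shares were 23.8% and 19.05%, against 32.4% and 21.4%, and between G325E and wild-type 12.5% and 25%, against 25% and 28%.

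DDX3X, which 2 of the constructs express, had 0 peaks in vector, 32 in wild-type and 9 with G325E. The labels call the cells both HEK293T and neuronal. Of 11 neuronal markers, TUBB3 (8, 6 and 5 peaks), NEFL (7, 10 and 13) and NEFM (16, 19 and 33) had peaks, and MAP2, RBFOX3, SYP, SNAP25, DCX, STMN2, GAP43 and ELAVL3 were at 0 in every list. Of 8 markers of kidney epithelium, KRT18 (11 peaks) and KRT8 (1 peak) appeared in wild-type and the others had none.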

How the data were processed

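Ribosome profiling was carried out in HEK293T cells with 1 library for each of 3 constructs, and groups were taken from the sample titles. The deposited files are peak lists in hg19 (GRCh37) coordinates, made by the authors for each sample separately. As their methods describe it, adapters were trimmed with cutadapt, BWA 0.5.5 aligned reads to the genome and to RefSeq, AceView and exon-junction sequences, duplicate reads were dropped, peaks were called from base coverage, merged, refined and reviewed by eye, and HOMER (version not given in the sources used here) annotated them. A legend calls the mapped reads unique, and how reads that match several places were handled in peak calling is not given in the sources used here. The lists hold positions and annotation without any measure of height or reads. The study's supplement counts the mapped reads of each library, but the depth behind a peak is unknown, and a gene at 0 had no listed peak. Peak numbers are consecutive in G325E, while 14.8% of numbers are missing in vector and 13.5% in wild-type. Among the members' runs of numbers this concerns ACTB and ACTG1 (1 number each in both lists), and TUBB2A and PFN1 (3 each in wild-type).

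Here each peak was placed by its midpoint on its gene's canonical transcript of GENCODE release 44 (GRCh37 version), and covered bases were counted on that transcript. A peak of no length was taken as 1 base. Deposited starts lay 1 base inside the left edge of an exon in 1110 vector, 1985 wild-type and 875 G325E peaks and at the edge itself in 10, 23 and 19, and positions are printed as deposited. Windows of 28 bases around each coding base were searched in GRCh37 on both strands and in other genes' transcripts. Peak numbers were scaled to the list totals with a pseudocount of 0.5, and a gene needed at least 5 peaks in a pair. For covered coding bases the pseudocount was 10 bases and at least 5% of the coding sequence had to be covered in a list. Coding GC was found for 82.8% of the 1708 genes in the GC comparison. Shares have 95% Wilson intervals, and ratios have exact conditional binomial intervals (Clopper-Pearson). Both cover counting error only. A count of 0 allows up to 3 peaks, which is 2.65%, 1.89% and 2.59% of the members' peaks in vector, wild-type and G325E. All 10 members were named, and of the cytoskeletal lists at most 5 genes per comparison, those with the largest scaled difference among genes with at least 10 peaks in the pair. TUBB4A, TUBB4B and the GC and family comparisons were added after the data were seen. The members and lists were chosen with earlier results of these data known. Software was Python 3.11.15, numpy 2.4.6, pandas 2.3.3, scipy 1.17.1 and matplotlib 3.10.9.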

Additional observations from a re-analysis of the deposited data

How the results depend on the processing

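No paired analysis was possible because each construct had 1 library. Of 107 values recomputed under an alternative, 64 stayed within the counting interval of the value above (counts: within 1.5 times) and 43 did not. The cause of these moves was not tested beyond what each alternative changes. Median scaling moved the summed log2 difference of the 10 genes between wild-type and vector from −0.34 to 0.23, so its sign depends on the scaling. It left 107 genes at least 2-fold lower in that pair in place of 380, and among the cytoskeletal lists 0 lower there in place of 5 and 1 higher in G325E than in wild-type in place of 3. With no minimum number of peaks, 1025 genes were higher in wild-type than in vector (576 above), and 845 and 1374 were lower in G325E than in vector and wild-type (442 and 708 above). The cytoskeletal counts then became 12 (6 above), 9 (4 above) and 15 (6 above).

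Coverage of the 10 genes' coding bases was 43.8%, 58.6% and 35.5% for vector, wild-type and G325E. Without peaks under 20 bp it was 42.8% in vector and 57.4% in wild-type. With the coding bases of any annotated transcript it was 41.0%, 54.4% and 34.0%, with peaks on the gene's strand alone 42.7%, 57.5% and 34.4%, and with unique windows alone 52.2%, 59.9% and 44.4%. Moving starts 1 base to the left, an alternative chosen after seeing the data, gave 59.6% in wild-type. The order of the constructs was the same in each of these, none of which scales to list size. As a share of the coding bases covered over all genes, a measure added after the data were seen, the 10 genes held 2.20%, 1.71% and 1.45%, so that vector was highest.

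By the deposited classes, with promoter-TSS as 5′-UTR and TTS as 3′-UTR, the members' 5′-UTR share was 12.6%, 14.1% and 18.1%, the coding share 80.5%, 78.1% and 73.5%, and the 3′-UTR share 7.81% in wild-type and 8.43% in G325E. All ACTG1 coding peaks carry a non-coding class and drop out there. Weighted by length, the 5′-UTR share was 12.7% in G325E and the 3′-UTR share 0.557% in wild-type. The stricter start codon rule gave 2, 3 and 2 members in place of 4, 5 and 4. Shared bases as a percent of bases covered in either list were 68.5% (wild-type and vector), 73.7% (G325E and vector) and 58.2% (G325E and wild-type). Counted instead as the share of the first-named list's peaks, intronic and outside peaks included, that meet a peak of the other list by at least 1 bp, the values were 58.5%, 76.7% and 83.6%, and with an overlap of 50% of the shorter peak 58.5%, 76.7% and 82.8%. Windows found elsewhere were 66.9% with 28 bases, 78.2% with 20 and 59.1% with 35.

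The read depth behind a peak is unknown, the libraries differed in mapped reads, and a gene without peaks is not shown to lack reads.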
